A study of Mus musculus with 13 samples.

Results

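Among 2505 barcoded clones of an MLL-AF9 leukaemia, 27 grew to at least 1% of the leukaemia in at least 1 Ptprca mouse while staying under 1% in every NSG mouse. A mouse's value was the mean of its bone marrow and spleen shares, with a share of 1% equal to 10000 counts per 1000000 (CPM). The 27 were chosen by these measured shares in all 6 mice, so the strain difference between them was set by the choice and is given as a description with no test. By the same limit, 12 clones were dominant in both strains and 11 only in NSG mice.

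MLL-AF9 is a fusion oncogene of acute myeloid leukaemia. c-Kit positive haematopoietic progenitors were transduced with the SPLINTR barcode library, and 1 Baseline library sampled the barcodes of the progenitors. Leukaemia cells carrying the barcodes were then followed in 3 Ptprca mice (mice 1, 2 and 3) and 3 NSG mice (mice 4, 5 and 6), with 1 bone marrow (BM) and 1 spleen library per mouse at disease. Ptprca mice carry the CD45.1 form of the leukocyte antigen CD45 and have a full immune system, whereas NSG mice lack mature T, B and natural killer cells and keep myeloid cells with known defects. The strains also differ in genetic background, so lymphocytes and background cannot be told apart here. No untreated or uninfected animal, age or sex is named in the labels, and all 6 mice received cells with MLL-AF9.

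A heritable DNA barcode is copied with the genome at each division, so its share of the barcode reads follows the share of the leukaemia that descends from 1 founder cell. Because shares of a library add up to a fixed total, a clone's share can also fall when another clone takes more. The readout counts barcode copies, and a cell that took up more than 1 barcode would appear as several clones.

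The libraries held 2484519 to 5252942 reads over 2 technical repeats. A count of 3 reads in the shallower repeat, taken as the floor, corresponded to 0.575 to 1.2 CPM in 12 libraries and to 8.80 CPM in the BM of mouse 3, whose shallower repeat held 170453 reads. Among members between 10 and 1000 CPM, 33 of 40 values were seen in both repeats of the NSG spleens, against 22 of 22 in NSG BM, 19 of 20 in Ptprca spleen and 16 of 16 in Ptprca BM. The median absolute log2 ratio between repeats for these members was 1.02, 0.896 and 0.821 in the spleens of mice 4, 5 and 6 and at most 0.667 in each of the other libraries, so low NSG spleen values are the least precise. Barcodes found in only 2 disease libraries numbered 5 to 20 for the organs of 1 mouse. Across mice the largest numbers were 7 for the spleen of mouse 3 with the BM of mouse 4, and 5 each for the BM of mouse 5 with the BM of mouse 1 and with the spleen of mouse 6.

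Together, the 27 clones made up about the same share of every Ptprca bone marrow and an uneven share of the spleens. They held 35.5%, 32.9% and 34.9% of the BM of mice 1, 2 and 3 (34.4% ± 1.36, SD, n = 3). In the spleens of the same mice they held 54.7%, 50.0% and 18.4% (41.0% ± 19.7, SD, n = 3). The spleen of mouse 3 stood below the others, and there GFP_Barcode_117983, dominant in both strains, alone held 36.7%. The same barcode was also the largest in the spleen of mouse 2, at 18.7%, where the 27 clones held 50.0%. In NSG mice 4, 5 and 6 the sums were 9.07%, 6.95% and 5.73% of BM (7.25% ± 1.69) and 2.06%, 2.71% and 2.49% of spleen (2.42% ± 0.332, SD, n = 3 each). The Baseline library held 2.86%. Every NSG bone marrow was thus above the Baseline sum and every NSG spleen below it, an order that turned in the spleens when 1 abundant clone was left out, as follows.

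GFP_Barcode_52804, dominant only in NSG mice, held 23.4%, 18.7% and 17.9% of NSG BM and 70.7%, 23.7% and 52.0% of NSG spleen. When shares were recomputed without it, the 27 clones held 9.12% ± 2.49 of NSG BM and 5.25% ± 1.73 of NSG spleen (SD, n = 3 each). The NSG spleens then held 7.00%, 3.55% and 5.19%, all above the Baseline sum of 2.86%. The lowest Ptprca library then held 18.5% and the highest NSG library 11.8%. Of the 27, 4 would pass 1% in an NSG mouse on this scale: GFP_Barcode_19525 at 1.51% in mouse 4, GFP_Barcode_72631 at 1.10% in mouse 4, GFP_Barcode_61176 at 1.05% in mouse 4 and GFP_Barcode_154004 at 1.04% in mouse 6.

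Most of these clones were dominant in a single animal. Of the 27, 17 reached 1% in 1 Ptprca mouse, 7 in 2 and 3 in all 3. Mouse 1 had 14 of them at 1% or more, mouse 2 had 14 and mouse 3 had 12, which makes 40 instances of a clone dominant in a mouse.

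The 3 clones dominant in every Ptprca mouse were GFP_Barcode_44375, GFP_Barcode_24738 and GFP_Barcode_14277. GFP_Barcode_44375 was the steadiest, at 3.32%, 4.37% and 3.67% of the BM and 1.61%, 4.62% and 2.82% of the spleen of mice 1, 2 and 3. In NSG mice 4, 5 and 6 it held 0.0496%, 0.0706% and 0.0172% of BM and 0.0919%, 0.0880% and 0.0909% of spleen. All 6 Ptprca libraries lay above all 6 NSG libraries, and the highest Ptprca mouse (4.50%) was 1.82 times the lowest (2.47%). The ratio of the mean over Ptprca mice to the mean over NSG mice was 50.0. This clone was the most abundant of the 27 at Baseline, at 0.982% (95% Wilson interval 0.973% to 0.990%, rank 15 of 2394 barcodes present there), so its NSG mean was 0.0693 times its Baseline share and its Ptprca mean 3.47 times.

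GFP_Barcode_24738 showed the same outline at lower shares. Its BM values were 1.61%, 3.38% and 2.18% in mice 1, 2 and 3, with 0.513%, 1.46% and 0.756% in their spleens. NSG BM held 0.139%, 0.140% and 0.104% of it, and NSG spleen 0.0647%, 0.0901% and 0.151%. The 2 sets of libraries did not overlap, and the BM of each Ptprca mouse was 2.31 to 3.13 times its spleen. At Baseline it held 0.389% (0.384% to 0.395%), above each of the NSG mice, whose mean was 0.295 times that share.

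GFP_Barcode_14277 had higher shares in spleen than in BM in all 3 Ptprca mice. It made up 10.1%, 12.5% and 3.45% of the spleens of mice 1, 2 and 3 and 0.0853%, 2.54% and 0.165% of their BM. The spleen share was 118, 4.94 and 20.9 times the BM share. In NSG mice 4, 5 and 6 it held 0.00562%, 0.0851% and 0.0144% of BM and 0.0273%, 0.0295% and 0 of spleen. The BM of Ptprca mouse 1 was level with the BM of NSG mouse 5, at 0.0853% against 0.0851%, while the spleens of the strains lay far apart. In NSG mice 5 and 6 its BM share was above its spleen share. Its Baseline share was 0.0423% (0.0405% to 0.0441%), which gives a Ptprca mean 114 times and an NSG mean 0.638 times the start.

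Of the 7 clones dominant in 2 Ptprca mice, 3 missed 1% in mouse 3, 3 missed it in mouse 2, and 1 missed it in mouse 1. The misses ranged from near the limit to far below it. GFP_Barcode_102213 had a mean of 1.92%, 2.18% and 0.911% in mice 1, 2 and 3, and GFP_Barcode_4519 had 1.95%, 1.11% and 0.731%. GFP_Barcode_39361, in contrast, had 1.32%, 1.75% and 0.0919%. By the mean of organs, all Ptprca mice were above all NSG mice for each of these 3, whose highest NSG mouse was 0.115%, 0.447% and 0.0650%. Within each organ this held for GFP_Barcode_102213 alone. For GFP_Barcode_4519 the spleen of mouse 3 (0.173%) was below that of NSG mouse 6 (0.184%). For GFP_Barcode_39361 the BM of mouse 3 (0.0506%) was below that of NSG mice 5 and 6 (0.0667% and 0.107%).

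For the 3 that missed the limit in mouse 2, no Ptprca mouse was under an NSG mouse by the mean of organs. GFP_Barcode_1218 averaged 2.37%, 0.684% and 1.55% in mice 1, 2 and 3, against 0.0121% to 0.0485% in NSG mice. For GFP_Barcode_96571 the means were 1.17%, 0.782% and 1.47%, against 0.0977% to 0.344%. Its spleen shares overlapped: NSG mouse 5 held 0.493%, above the 0.358%, 0.257% and 0.376% of mice 1, 2 and 3. GFP_Barcode_9344 reached 1.17%, 0.410% and 2.56%, against 0.0778% to 0.325%. Its BM shares overlapped: mouse 2 held 0.137%, below the 0.641%, 0.642% and 0.156% of mice 4, 5 and 6. The last of the 7, GFP_Barcode_61176, differed: it held 1.95% and 1.80% in mice 2 and 3 but 0.0907% in mouse 1, less than in any NSG mouse (0.758%, 0.522% and 0.138%). Its BM shares were 0.0884%, 1.40% and 1.94% in mice 1, 2 and 3 and 1.46%, 0.491% and 0.162% in mice 4, 5 and 6. Its spleen shares were 0.0930%, 2.49% and 1.67%, and 0.0556%, 0.552% and 0.113%. In BM, NSG mouse 4 thus lay above Ptprca mice 1 and 2.

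The 17 clones dominant in 1 Ptprca mouse included the highest share of the 27 in any library. GFP_Barcode_113284 made up 27.7% of the spleen and 1.47% of the BM of mouse 1. It held 0.272% of BM and 0.340% of spleen in mouse 2, and 0.0641% and 0.0226% in mouse 3. The BM of NSG mice 4, 5 and 6 held 0.0351%, 0.202% and 0.246%, and their spleens 0.00828%, 0 and 0.136%. Mouse 3 therefore lay among the NSG mice, and without mouse 1 this clone would not be dominant anywhere. Its Baseline share was 0.103% (0.10% to 0.106%).

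A high share in a single spleen was seen for 3 other clones. In the spleen of mouse 2, GFP_Barcode_43077 reached 10.2%, against 0.935% in the BM of that mouse. Elsewhere it held 0.280% and 0.135% of the BM and 0.0184% and 0.0893% of the spleen of mice 1 and 3. NSG mice held 0.361%, 0.204% and 0.198% in BM and 0.218%, 0.422% and 0.260% in spleen, so mice 1 and 3 were below all NSG mice by their mean of organs (0.149% and 0.112%, against 0.229% to 0.313%).

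GFP_Barcode_72631 also peaked in the spleen of mouse 2, at 9.17%, with 0.712% in BM. Its BM share was close to even across the Ptprca mice, at 0.678%, 0.712% and 0.917%, and the spleens of mice 1 and 3 held 0.507% and 0.0492%. NSG BM held 0.689%, 1.5% and 0.494%, and NSG spleen 0.381%, 0.112% and 0.0767%. In BM the strains overlapped, and the BM of NSG mouse 5 was the highest of the 6. This clone is thus in the set through 1 spleen. It was among the more abundant founders, at 0.448% of Baseline (0.442% to 0.454%, rank 36).

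GFP_Barcode_12212 was the rarest of the 27 at Baseline, with 12 reads over both repeats, or 2.66 CPM (0.000266%, 0.000156% to 0.000453%, rank 2102). It made up 8.98% of the spleen of mouse 1, 0.0471% of the BM of mouse 1 and 0.321% of the spleen of mouse 2. The BM of mouse 2 and both organs of mouse 3 were at 0, where the floors were 0.735, 8.80 and 0.575 CPM. Of the NSG libraries, 5 were at 0 and the BM of mouse 5 held 6 reads (1.32 CPM, floor 0.679 CPM). The 3 highest values thus came from the spleens of mice 1 and 2 and the BM of mouse 1.

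The other 13 clones dominant in 1 Ptprca mouse, apart from GFP_Barcode_2189, owed their place to bone marrow. In mouse 1, BM held 4.55% of GFP_Barcode_100808, 3.63% of GFP_Barcode_29272 and 2.41% of GFP_Barcode_19525, and the spleen held 0.637%, 0.192% and 0.398%. In mouse 2, BM held 3.12% of GFP_Barcode_80507, 2.40% of GFP_Barcode_24894, 2.26% of GFP_Barcode_17876 and 1.72% of GFP_Barcode_154004, with 0.131%, 0.177%, 0.163% and 0.391% in spleen. In mouse 3, BM held 4.16% of GFP_Barcode_47225, 3.74% of GFP_Barcode_83, 2.79% of GFP_Barcode_49214, 2.51% of GFP_Barcode_28411 and 2.26% of GFP_Barcode_54250, and the spleen 0.746%, 0.342%, 0.0631%, 0.141% and 0.103%. Each of these 12 was higher in BM than in spleen of its mouse. GFP_Barcode_2189 was the exception, at 0.389% of the BM and 2.24% of the spleen of mouse 2.

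In the mice where they were not dominant, these clones spanned a wide range. GFP_Barcode_83 was at 3.74% of the BM of mouse 3, at 0 in both organs of mouse 2 and the spleen of mouse 1, and at 1 read in the BM of mouse 1. NSG mouse 4 held 0.262% of it in BM and 0.279% in spleen, far above Ptprca mice 1 and 2. GFP_Barcode_80507 held 1.62% of mouse 2 by its mean of organs, against 0.00109% in mouse 1 and 0.000969% in mouse 3. In mouse 3 its BM value was 1 read and its spleen value 87 reads, all in 1 repeat. NSG mice 4, 5 and 6 held 0.00229%, 0.0952% and 0.0572% of this clone. GFP_Barcode_54250 held 1.18% of mouse 3, 0.131% of mouse 2 and 0.0162% of mouse 1, and the NSG mice held 0.270%, 0.0648% and 0.268%. By library it held 0.00076%, 0.191% and 2.26% of Ptprca BM, 0.0316%, 0.0706% and 0.103% of Ptprca spleen, 0.514%, 0.109% and 0.523% of NSG BM and 0.0258%, 0.0207% and 0.0140% of NSG spleen. The 0.00076% in the BM of mouse 1 was 45 reads, all in 1 repeat. Every Ptprca spleen was above every NSG spleen, while in BM 2 of the NSG mice were above Ptprca mice 1 and 2. For these 3 clones the Ptprca mice outside the dominant one did not all exceed the NSG mice.

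GFP_Barcode_28411 and GFP_Barcode_29272 were, after GFP_Barcode_12212, the rarest of the 27 at Baseline. GFP_Barcode_28411 started at 0.00361% (0.00312% to 0.00417%) and held 0.0175%, 0.0883% and 2.51% of BM and 0.0232%, 0.00142% and 0.141% of spleen in mice 1, 2 and 3. NSG BM held 1 read, 0.0129% and 0.00312%, and NSG spleen 0.00176% (49 reads, all in 1 repeat), 0.0494% and 0.00867%, so the BM of every Ptprca mouse was above the BM of every NSG mouse. GFP_Barcode_29272 started at 0.00833% (0.00757% to 0.00917%) and held 3.63%, 0 and 0.0631% of BM and 0.192%, 0 and 0.295% of spleen. In NSG mouse 4 it held 0.000207% of BM and 0 of spleen, in mouse 5 0.0162% and 0.00776%, and in mouse 6 it was at 0 in both. Mouse 2, at 0, was not above any NSG mouse for this clone.

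Set against the tested barcodes, the overlap of the strains was as follows. Every Ptprca mouse was above every NSG mouse for 9 of the 27 clones, where 8.04% of the 373 barcodes that reached 10 CPM in 3 or more of the 12 disease libraries were so ordered. For BM alone this held for 8 of 27 (8.04% of the 373), and for spleen alone for 11 of 27 (11.3%). These counts follow from how the clones were chosen, and nothing is read from them. For the other 18 clones at least 1 Ptprca mouse lay below the highest NSG mouse, which was mouse 1 for 13 clones, mouse 2 for 6 and mouse 3 for 10.

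None of the 27 was at 0 in all NSG libraries, and 13 were above the floor in all 12 disease libraries. Values of 0 were found for 7 of 81 clone values in NSG BM and 20 of 81 in NSG spleen, against 5 and 4 of 81 in Ptprca BM and spleen. No such counts are given over all tested barcodes, and choosing clones high in a Ptprca mouse favours this contrast. The NSG spleens were also shallower, with 2640788, 3225751 and 3821789 reads in mice 4, 5 and 6. The spleens of mice 1, 2 and 3 held 5091049, 5226940 and 5252942 reads. Nothing is read from these counts of 0. A share of 1% was reached in a single NSG library by 3 of the 27, each time in BM: GFP_Barcode_72631 at 1.5% in mouse 5, GFP_Barcode_61176 at 1.46% in mouse 4 and GFP_Barcode_100808 at 1.03% in mouse 6. For these the description as dominant only in Ptprca mice holds for the mean of both organs and not for every library.

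The ratio of the Ptprca mean to the NSG mean varied widely among the clones. It was 178 for GFP_Barcode_14277, 173 for GFP_Barcode_29272, 75.2 for GFP_Barcode_17876 and 52.6 for GFP_Barcode_49214, and for GFP_Barcode_12212 no ratio is given because its NSG value was 6 reads in all. The Ptprca means of GFP_Barcode_29272, GFP_Barcode_17876 and GFP_Barcode_49214 came mostly from 1 mouse. They were 0.696% ± 1.05, 0.411% ± 0.694 and 0.514% ± 0.792 (SD, n = 3 each). For each of them at least 1 Ptprca mouse lay below the highest NSG mouse. At the other end the ratio was 1.33 for GFP_Barcode_19525, 1.64 for GFP_Barcode_154004 and 1.70 for GFP_Barcode_2189. GFP_Barcode_19525 held 2.41%, 0.0110% and 0.872% of the BM and 0.398%, 0.00881% and 0.117% of the spleen of mice 1, 2 and 3, and 0.739%, 0.678% and 0.369% of the BM and 0.602%, 0.0905% and 0.395% of the spleen of mice 4, 5 and 6. Mouse 2 was the lowest of all 6 in both organs, and the mean was 0.637% ± 0.709 in Ptprca and 0.479% ± 0.166 in NSG mice (SD, n = 3 each). GFP_Barcode_154004 held 0.777%, 0.175% and 0.692% of NSG BM and 0.109%, 0.342% and 0.595% of NSG spleen, with a mean of 0.734% ± 0.378 in Ptprca and 0.448% ± 0.193 in NSG mice (SD, n = 3 each). For both clones the difference of the means was smaller than the SD among Ptprca mice.

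GFP_Barcode_17876 lay at the other extreme of the members near the limit, with low NSG values. It held 0.0196%, 2.26% and 0.0101% of Ptprca BM and 0.00019%, 0.163% and 0.0132% of Ptprca spleen. In NSG mice it held 0.000157%, 0.0229% and 0 of BM and 0, 0.00977% and 0 of spleen. Outside mouse 2, its Ptprca values overlapped those of NSG mouse 5.

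Clones near the limit show how finely the set is drawn. On the Ptprca side, the 3 least dominant members reached 1.21% (GFP_Barcode_17876), 1.18% (GFP_Barcode_54250) and 1.06% (GFP_Barcode_154004) in their highest mouse. Just outside were GFP_Barcode_32687 at 0.994%, GFP_Barcode_7893 at 0.963% and GFP_Barcode_78457 at 0.960%. On the NSG side, the members closest to the limit were GFP_Barcode_72631 at 0.804%, GFP_Barcode_61176 at 0.758% and GFP_Barcode_19525 at 0.671%. GFP_Barcode_618 at 1.08%, GFP_Barcode_39453 at 1.30% and GFP_Barcode_3138 at 2.12% of their highest NSG mouse were outside it.

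The rank order of the 27 clones was alike among NSG mice and differed among Ptprca mice. Spearman's rho across the 27 was 0.768 (mice 4 and 5), 0.729 (4 and 6) and 0.770 (5 and 6) in NSG mice, and 0.138 (mice 1 and 2), 0.00916 (1 and 3) and -0.0357 (2 and 3) in Ptprca mice. The rule asks for a high value in any Ptprca mouse and sets no such condition on the NSG mice beyond a ceiling, so these values describe the set as chosen. The 11 clones dominant only in NSG mice showed the reverse, with 0.735 to 0.934 among Ptprca mice and -0.0727 to 0.761 among NSG mice. Over all 373 barcodes the strains were closer, with rho from 0.480 to 0.534 between Ptprca mice and from 0.524 to 0.567 between NSG mice.

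The clones were chosen on the mean of both organs, whichever organ was higher, but from the same libraries, so the organ counts describe the clones as chosen. In the 40 instances of a clone dominant in a Ptprca mouse, BM exceeded spleen in 27 and spleen exceeded BM in 13. The limit of 1% was passed in BM only in 22 instances, in both organs in 11 and in spleen only in 7. The BM of mice 1, 2 and 3 held 12, 12 and 14 of the 27 clones at 1% or more, and their spleens 5, 8 and 5. Fewer of the clones were thus at 1% in spleen than in BM in each mouse. The same count is not given over all barcodes, and 71.0% of the 373 were lower in spleen by the limma difference given below. In the spleen of mouse 1 the 3 largest of the 27 (GFP_Barcode_113284, GFP_Barcode_14277 and GFP_Barcode_12212) summed to 46.7% of the library, and in mouse 2 (GFP_Barcode_14277, GFP_Barcode_43077 and GFP_Barcode_72631) to 31.9%. The 3 largest summed to 12.4%, 11.0% and 11.6% in the BM of mice 1, 2 and 3, and to 10.3% in the spleen of mouse 3.

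Per clone, the organs were compared with limma on log2(CPM + 1), a scale that understates changes of low barcodes, over the 6 Ptprca libraries and all 373 barcodes, and none of the 27 passed a Benjamini-Hochberg adjusted p of 0.05 (0 of 27, with 0.00% of the 373 called). At an unadjusted p under 0.05 there were 3 of 27 (5.09% of the 373), and with the mouse as a block 5 of 27 (10.5% of the 373). The median spleen minus BM difference was -0.67 over the 27 and -0.84 over the 373, and 21 of 27 (77.8%) had a negative difference, against 71.0% of the 373. Both medians were below 0, meaning lower shares in spleen. The 27 were chosen from these same libraries, so their counts and p-values describe the clones as chosen.

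The clone with the lowest p was GFP_Barcode_96571. It held 1.98%, 1.31% and 2.56% of the BM and 0.358%, 0.257% and 0.376% of the spleen of mice 1, 2 and 3, so each BM was 5.10 to 6.80 times the spleen of its mouse and the organs did not overlap. Its spleen minus BM difference on log2(CPM + 1) was -2.53, with an SE of 0.53 and an adjusted p of 0.271 in limma. GFP_Barcode_154004, at 0.578%, 1.72% and 1.38% of BM and 0.0580%, 0.391% and 0.273% of spleen, differed by -2.60 (SE 0.94, adjusted p = 0.809 in limma). GFP_Barcode_14277 went the other way by 4.52 (SE 1.43, adjusted p = 0.793 in limma). These fits did not pair the organs of a mouse. With the mouse as a block, the SEs of these clones were 0.35, 0.44 and 1.09 in the same order. The adjusted p in limma was then 0.257, 0.311 and 0.368.

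The direction in each mouse was counted next. BM was above spleen in all 3 Ptprca mice for 6 of 27 clones (18.8% of the 373): GFP_Barcode_24738, GFP_Barcode_4519, GFP_Barcode_96571, GFP_Barcode_154004, GFP_Barcode_19525 and GFP_Barcode_24894. For 3 of these, GFP_Barcode_24738, GFP_Barcode_96571 and GFP_Barcode_154004, every Ptprca BM lay above every Ptprca spleen (3 of 27, with 6.70% of the 373). Spleen was above BM in all 3 mice for GFP_Barcode_14277 (1 of 27, with 2.68% of the 373), whose spleens also all lay above its BM (1 of 27, 1.07%). GFP_Barcode_12212 had spleen above BM in mice 1 and 2 and was at 0 in both organs of mouse 3, and GFP_Barcode_83 had BM above spleen in mice 1 (by 1 read) and 3 and was at 0 in mouse 2. The order of the organs changed between mice for the other 18 clones. GFP_Barcode_1218 held 4.25%, 1.22% and 1.19% of BM and 0.490%, 0.148% and 1.92% of spleen, with spleen above BM in mouse 3 alone. GFP_Barcode_9344 held 1.97%, 0.137% and 1.14% of BM and 0.381%, 0.684% and 3.98% of spleen, with BM above spleen in mouse 1 alone. GFP_Barcode_102213 held 3.00%, 0.729% and 1.52% of BM and 0.837%, 3.64% and 0.301% of spleen, with spleen above BM in mouse 2 alone.

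In NSG mice 24 of the 27 clones (88.9%) had a lower share in spleen than in BM by the fitted difference, against 81.8% of the 373. The 24 included GFP_Barcode_12212, GFP_Barcode_17876 and GFP_Barcode_29272, which passed the filter of 10 CPM only with the help of Ptprca libraries. The 88.9% and the median of the 27 given below include them, so nothing is read from either. The NSG libraries also took part in choosing the 27, so the counts and p-values describe the clones as chosen. The difference of -0.40 for GFP_Barcode_12212 came from 6 reads in the BM of mouse 5, with the other NSG libraries at 0. BM was above spleen in all 3 NSG mice for 10 of the 27 clones (24.1% of the 373) and spleen above BM in all 3 for 2 (1.61%), GFP_Barcode_44375 and GFP_Barcode_28411. The median spleen minus BM difference was -1.95 over the 27 and -1.66 over the 373 on the log2(CPM + 1) scale. No clone of the 27 passed in limma (0 of 27, with 0.00% of the 373 called), and 8 had an unadjusted p under 0.05 (11.5% of the 373), all lower in spleen. With the mouse as a block there were 6 of 27 (9.65% of the 373). GFP_Barcode_9344 had the lowest p. It held 0.641%, 0.642% and 0.156% of the BM of mice 4, 5 and 6 and 0, 0.00797% and 0 of their spleens, a difference of -9.85 (SE 2.17, limma adjusted p = 0.349). With 2 spleens at 0 its size depends on the pseudocount, and it was -7.59 with 10 CPM and -12.07 with 0.1 CPM. With 1 spread per barcode estimated over all 12 libraries, this clone passed (SE 1.79, limma adjusted p = 0.0137, over a range of 0.0137 to 0.682 for all settings). The NSG spleens are the libraries with the least even repeats, and their part in these differences was not tested.

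Whether the organ difference itself differed between the strains was tested as an interaction over 12 libraries. The 27 were chosen from these same libraries, so their counts and p-values here describe the clones as chosen. None of the 27 passed in limma (0 of 27, with 0.00% of the 373 called), and 4 had an unadjusted p under 0.05 (4.02% of the 373), and with the mouse as a block 7 of 27 (6.17% of the 373). These 4 were GFP_Barcode_9344, GFP_Barcode_2189, GFP_Barcode_14277 and GFP_Barcode_102213, each with a spleen minus BM difference that was lower in NSG mice. For GFP_Barcode_2189, Ptprca mice held 0.240%, 0.389% and 0.0526% of BM and 0.0369%, 2.24% and 0.0646% of spleen, while NSG mice held 0.794%, 0.627% and 0.321% of BM and 0.0304%, 0 and 0.00588% of spleen. In BM this clone was higher in 2 NSG mice than in any Ptprca mouse. Its NSG minus Ptprca difference between the organ contrasts was -7.73 on log2(CPM + 1), with an SE of 2.85 and an adjusted p of 0.786 in limma. With the spleen of mouse 5 at 0, the size depends on the pseudocount. It was -6.55 with 10 CPM and -8.84 with 0.1 CPM, and -5.27 without mouse 5.

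All 27 clones were present at Baseline, and 25 of them were above the median of the barcodes present there. The 25 has no share over the 373 beside it, and nothing is read from it. Their Baseline shares ran from 2.66 to 9818 CPM with a median of 423 CPM. The 369 of the 373 tested barcodes that were present at Baseline had a median of 359 CPM, all 2394 barcodes present there a median of 50.2 CPM, the 12 clones dominant in both strains a median of 1033 CPM and the 11 dominant only in NSG mice 560 CPM. At Baseline, 6 of the 27 (22.2%) were at 1000 CPM or more, against 24.1% of the 369. Under 100 CPM there were 5 of the 27 and 78 of the 369. Across the 27, Spearman's rho of the Baseline share was 0.331 with the Ptprca mean and 0.394 with the NSG mean, given as a description over clones that share libraries.

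Relative to the single Baseline library, every one of the 27 had a higher mean in Ptprca mice, which the choice of clones favours. Of the 27, 19 had a higher mean in NSG mice. Neither count has a share over the 373 beside it, and nothing is read from them. The median ratio of the mean share to the Baseline share was 33.1 in Ptprca mice, which the choice of clones requires to be high, and 2.42 in NSG mice. The same medians over the 369 tested barcodes were 0.659 and 0.767. A share above Baseline in all 3 Ptprca mice was seen for 15 of 27 clones (12.6% of the 373), and in all 3 NSG mice for 9 (14.7%). These 9 were GFP_Barcode_43077, GFP_Barcode_9344, GFP_Barcode_61176, GFP_Barcode_4519, GFP_Barcode_100808, GFP_Barcode_154004, GFP_Barcode_19525, GFP_Barcode_2189 and GFP_Barcode_54250.

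The NSG means of GFP_Barcode_43077, GFP_Barcode_100808 and GFP_Barcode_61176 were 30.4, 20.8 and 18.8 times their Baseline shares of 0.00913%, 0.0189% and 0.0251%. A share below Baseline in all 3 NSG mice was seen for 4 of 27 (40.8% of the 373): GFP_Barcode_44375, GFP_Barcode_24738, GFP_Barcode_1218 and GFP_Barcode_12212. For GFP_Barcode_12212 the comparison lies near the floor. It was at 2.66 CPM at Baseline, at 1.32 CPM in the BM of mouse 5 and at 0 in the other NSG libraries. GFP_Barcode_1218 held 0.160% at Baseline, 0.0938%, 0.0561% and 0.00869% of NSG BM and 0.00315%, 0.0182% and 0.0155% of NSG spleen. The set therefore held both clones above their Baseline share in all NSG mice and clones below it in all of them. With 1 Baseline library these ratios have no replicate check.

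No 2 of the 27 kept a near-constant ratio to each other. The criterion was an SD under 0.25 of the log2 ratio over at least 4 libraries with both above 100 CPM. GFP_Barcode_17876 met it with a barcode outside the set, GFP_Barcode_81575, over 4 libraries (SD 0.219), but that barcode was at 0 in both organs of mouse 2, where GFP_Barcode_17876 stood at 22618 CPM in BM and 1627 CPM in spleen.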

How the data were processed

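DNA barcodes were counted in 12 disease libraries of 6 mice and in 1 Baseline library. Per the labels' protocols, viable cells were sorted, each lysate was divided into repeats, and 2 PCR rounds amplified the barcodes. The authors' tools were R 3.6 and Bowtie 1.2.2, per the submitters' processing notes, with settings not given in the sources used here. Each library's values are CPM, deposited as columns that sum to 1000000. Every value under 60 CPM could be written as whole multiples of 2 step sizes added together (tolerance 1e-06 CPM), as a mean over 2 repeats of different depth gives. The step sizes gave the reads of each repeat. That repeats were averaged is inferred from these values and is not stated in the labels, and the read depths and floors rest on it. No count model was fitted for this reason.

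The 373 barcodes that reached 10 CPM in 3 or more disease libraries were tested in R 4.3.3 with limma 3.58.1. The fit took log2(CPM + 1), let the prior variance follow a trend, and used a Benjamini-Hochberg threshold of 0.05 over the 373. All 27 members were among the 373. Each organ contrast used the 6 libraries of 1 strain, and the interaction used all 12, without pairing the organs of a mouse. The procedure was tested on simulated data, where it missed many known differences and made some false calls in NSG mice. Wilson intervals (95%) of Baseline shares used the summed reads. Intervals and floors reflect counting error alone, because copies made by PCR, with no molecular identifier, are not independent molecules. The other steps used scipy 1.17.1, pandas 2.3.3 and numpy 2.4.6 under Python 3.11.15.

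Members, tests and comparisons were chosen with earlier results of these data known. Barcodes given with the value of every library were those dominant in all 3 Ptprca mice, the 5 largest by Ptprca mean, any called, and the 3 most and 3 least abundant at Baseline. The 3 members nearest each side of the limit were included too, and the 3 barcodes just outside are given by their highest mouse. Other members were named after their values were seen. The mouse number in the labels pairs the BM and spleen of 1 animal. Deviations of the paired libraries from their group means had correlations from 0.773 to 0.796 (Ptprca) and from 0.208 to 0.254 (NSG). Alternatives covered the limit, the filter, the pseudocount, the scaling, the variance model, the mouse as a block and leaving out mice.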

Additional observations from a re-analysis of the deposited data

How the results depend on the processing

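The number of clones depended on where the limit was set. It was 27 as chosen, 50 at 5000 CPM, 15 at 20000 CPM, 42 from bone marrow alone, 48 from the higher of both organs and 19 from spleen alone, of which 22, 13, 21, 24 and 13 were among the 27. It was 23 without the most abundant barcode, and 20 to 29 with each mouse left out. Chosen after seeing the data, 2 further alternatives gave 25 without the bone marrow of mice 1 and 5, and 35 without the spleen of mouse 3 and the bone marrow of mouse 4. The summed share rose from 7.25% to 9.12% in NSG bone marrow and from 2.42% to 5.25% in NSG spleen without the most abundant barcode, and ran from 6.34% to 8.01% and from 2.27% to 2.60% with each NSG mouse left out. Over the limma settings tried, the calls stayed at 0 among the 27 in the organ contrast of Ptprca mice and in the interaction. With centred log-ratios 1 barcode outside the 27 was called in Ptprca mice. In NSG mice 1 barcode was called with 4 group means over 12 libraries, 1 of the 27, and 1 barcode outside the 27 without a variance trend, and the cause was not tested. With the mouse as a replicate block, 0 barcodes were called in each of the 3 comparisons. The count of the 27 at an unadjusted p under 0.05 then went from 3 to 5 in Ptprca mice, from 8 to 6 in NSG mice and from 4 to 7 in the interaction, while over all 373 it went from 19 to 39, from 43 to 36 and from 15 to 23.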
